A study of Mus musculus with 22 samples.

Results

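The 10 genes that prepare peptides for major histocompatibility complex (MHC) class I molecules were followed through H3K27ac ChIP–seq of mouse Kupffer cells, which are liver macrophages. They were taken by gene symbol: every counted window annotated to *Psmb8*, *Psmb9*, *Psmb10*, *Tap1*, *Tap2*, *Tapbp*, *Nlrc5*, *Erap1*, *Psme1* or *Psme2* was a member, which gave 28 of 96381 windows of 1000 bp in the parental strains and 58 of 217456 regions in the hybrids. The rows of the hybrid regions are 200 bp wide, while the study's methods name 1000 bp windows, so the width over which hybrid reads were counted is not certain. Of the 28 windows, 25 had a mean normalised count over 16 and were tested. The other 3 lay 42649 bp upstream of the *Erap1* start, 1488 bp upstream of the *Tapbp* start and 13079 bp downstream of the *Psmb9* start. *Psmb9* held 5 windows, *Erap1* and *Tapbp* 4 each, *Psmb10* and *Psme2* 3 each, *Psmb8*, *Tap2*, *Nlrc5* and *Psme1* 2 each and *Tap1* 1, and 12 windows overlapped the one before them.

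Kupffer cells were sorted by FACS from livers of untreated male mice of 8 to 12 weeks on standard diet. A/J, BALB/cJ and C57BL/6J, inbred strains that carry different MHC (H2) haplotypes, gave 3 H3K27ac libraries each. CB6F1/J, the first-generation hybrid of BALB/cJ and C57BL/6J, gave 3 libraries whose reads were split by allele where they span a variant. Input chromatin was counted in 3 libraries of A/J, 3 of BALB/cJ and 1 of C57BL/6J, and the F1 input libraries were not used here. The labels do not say whether each library came from 1 animal, so p-values measure the spread between libraries. Counts in windows totalled 2291425.5 to 12980348 per H3K27ac library, with replicate 2 the shallowest in every strain, and 583517.5 to 1916587.5 per input library. The windows nearest the starts of *Spic*, *Cd5l* and *Timd4*, all known from Kupffer cells, averaged 338.3, 210.0 and 169.7 normalised counts, whereas *Cd163* and *Marco* were lower there, at 35.4 and 20.8. No window was annotated to the B cell gene *Cd79a* or the T cell genes *Cd3e* and *Cd3g*, but the B cell gene *Ms4a1* averaged 15.3 at its nearest window and *Ncr1* and *Cd2*, of NK and T cells, 13.1 and 4.5.

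Class I molecules display peptides cut from the cell's own proteins. Under interferon-γ, *Psmb8*, *Psmb9* and *Psmb10* replace the catalytic subunits of the constitutive proteasome and form the immunoproteasome, and *Psme1* and *Psme2* encode the PA28 cap that opens it. *Tap1* and *Tap2* form the transporter that moves peptides into the endoplasmic reticulum, *Tapbp* encodes tapasin, which bridges the transporter and the empty class I molecule, and *Erap1* trims peptides to their final length. *Nlrc5* encodes the transactivator of class I promoters. H3K27ac marks active promoters and enhancers, and resident macrophages such as Kupffer cells can present antigen on class I.

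*Psmb9*, *Tap1*, *Psmb8* and *Tap2* lie side by side in the MHC on chromosome 17, and *Tapbp* is in the same complex. The RefSeq promoters of *Psmb9* (minus strand) and *Tap1* (plus strand) run from 250 bases before to 50 after each start in GRCm38.p6 (mm10), and they share 275 bases, because the starts are 226 bases apart and the genes are transcribed away from each other. RefSeq promoters were found for 8 of the 10 genes, with 2 entries for *Psme2*, and none was matched for *Tap2* and *Nlrc5*. Printed here are the *Tap1* promoter at chr17:34187306-34187605 (plus strand), which also holds the *Psmb9* start; the *Psmb8* promoter at chr17:34197945-34198244 (plus strand), in the window with the second-lowest adjusted p; and, for comparison, the *Erap1* promoter at chr13:74639603-74639902 and the *Psme1* promoter at chr14:55578244-55578543 (both plus strand), which hold the interferon-response element. Capitals mark the motifs searched for.
Tap1 promoter: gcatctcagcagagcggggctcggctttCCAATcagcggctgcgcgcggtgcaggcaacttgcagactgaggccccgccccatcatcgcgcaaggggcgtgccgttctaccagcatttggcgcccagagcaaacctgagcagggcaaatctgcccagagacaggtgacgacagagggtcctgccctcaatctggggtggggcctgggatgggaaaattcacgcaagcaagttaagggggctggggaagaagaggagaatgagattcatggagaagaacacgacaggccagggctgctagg
Psmb8 promoter: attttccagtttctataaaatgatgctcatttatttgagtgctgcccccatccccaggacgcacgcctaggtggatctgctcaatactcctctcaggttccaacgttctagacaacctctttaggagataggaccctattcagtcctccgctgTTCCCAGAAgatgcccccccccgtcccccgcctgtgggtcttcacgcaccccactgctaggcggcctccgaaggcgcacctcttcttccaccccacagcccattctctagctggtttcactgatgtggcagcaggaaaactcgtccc
Erap1 promoter: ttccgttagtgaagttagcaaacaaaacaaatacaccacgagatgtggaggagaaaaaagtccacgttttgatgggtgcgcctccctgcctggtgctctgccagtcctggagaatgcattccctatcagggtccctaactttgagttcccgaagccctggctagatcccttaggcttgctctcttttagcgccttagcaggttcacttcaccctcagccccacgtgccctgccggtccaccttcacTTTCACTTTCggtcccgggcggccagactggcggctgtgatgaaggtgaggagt
Psme1 promoter: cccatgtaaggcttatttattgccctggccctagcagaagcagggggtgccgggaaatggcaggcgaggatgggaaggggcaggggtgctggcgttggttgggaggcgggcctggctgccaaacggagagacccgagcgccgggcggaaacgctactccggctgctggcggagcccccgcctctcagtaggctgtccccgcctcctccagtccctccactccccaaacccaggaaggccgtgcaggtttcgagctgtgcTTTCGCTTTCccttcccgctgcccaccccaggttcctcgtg

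On both strands of these promoters 6 motifs were searched: the interferon-stimulated response element (ISRE, a GAAA block, 2 bases of any kind and another GAAA block), the interferon-γ-activated sequence (GAS, TTCNNNGAA), the CCAAT box (CCAAT), AP-1 (TGANTCA), the ETS and PU.1 core (GAGGAAGT) and κB. The ISRE stood in 2 of the 9 member promoters, on the minus strand from position -4 of *Erap1* and from position 10 of *Psme1*, against 3.44% of 32851 promoters of the same length. The GAS element stood in 1, from position -97 of *Psmb8*, against 8.3% of all promoters. A single CCAAT box counted for both divergent genes, from position -222 of *Tap1* and position -8 of *Psmb9*, and *Tapbp* held 2 more, so that 3 of the 9 promoters had one against 37.4% of all. AP-1, ETS and κB motifs had no match in the 9, against 7.81%, 3.2% and 4.51% of all promoters. No pair of matches within a member promoter overlapped, and a match describes letters only.

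The 2 distal windows with the largest difference between BALB/cJ and C57BL/6J are shown by the accessible regions of 200 bases inside them, read from mm10 on the plus strand. The *Psmb9* region at chr17:34180608-34180807 lies in the window 6634 bp downstream of the start, which overlaps no annotated gene and begins beyond the 3′ end of *Psmb9*, 833 bases away. The *Tap2* region at chr17:34206017-34206216 lies in intron 3, in the window 1588 bp downstream of the start, and is the nearer of 2 regions to the centre of that window. None of the 6 motifs matched the *Psmb9* region, and the *Tap2* region held 1 AP-1 match, in capitals.
Psmb9 region: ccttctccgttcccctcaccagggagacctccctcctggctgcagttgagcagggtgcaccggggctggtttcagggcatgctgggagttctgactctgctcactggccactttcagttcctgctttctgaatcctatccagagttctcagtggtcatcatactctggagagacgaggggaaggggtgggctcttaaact
Tap2 region: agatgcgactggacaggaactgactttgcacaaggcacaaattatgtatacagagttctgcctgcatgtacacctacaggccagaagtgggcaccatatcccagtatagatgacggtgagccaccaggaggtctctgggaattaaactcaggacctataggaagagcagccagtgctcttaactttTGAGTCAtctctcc

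At the window nearest its start, every gene but *Nlrc5* carried strong H3K27ac, and because all windows are 1000 bp wide these levels can be set beside each other. Normalised counts are read counts scaled for each library's depth and composition to the size of an average library. Averaged over the 9 libraries, *Tapbp* was highest at 404, followed by *Psme2* at 363, *Tap1* at 307, *Erap1* at 278, *Psmb9* at 267, *Psme1* at 210.0, *Psmb8* at 172, *Psmb10* at 119.8 and *Tap2* at 115 normalised counts. Among these 9 genes, the libraries of each gene overlapped those of the next one in the order. *Nlrc5* had no window at its start, and the nearest, 12725 bp downstream in intron 11, averaged 17.6 and did not reach the levels of *Tap2* in any library. In mean level, the *Tapbp* start window stood at percentile 98.0 and that *Nlrc5* window at percentile 39.2 of the windows counted. BALB/cJ had the lowest mean of the 3 strains in 7 of these 10 windows and in 20 of the 25 tested. Some of these windows overlap, and how often BALB/cJ is lowest over all windows was not counted.

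**Figure D1:**
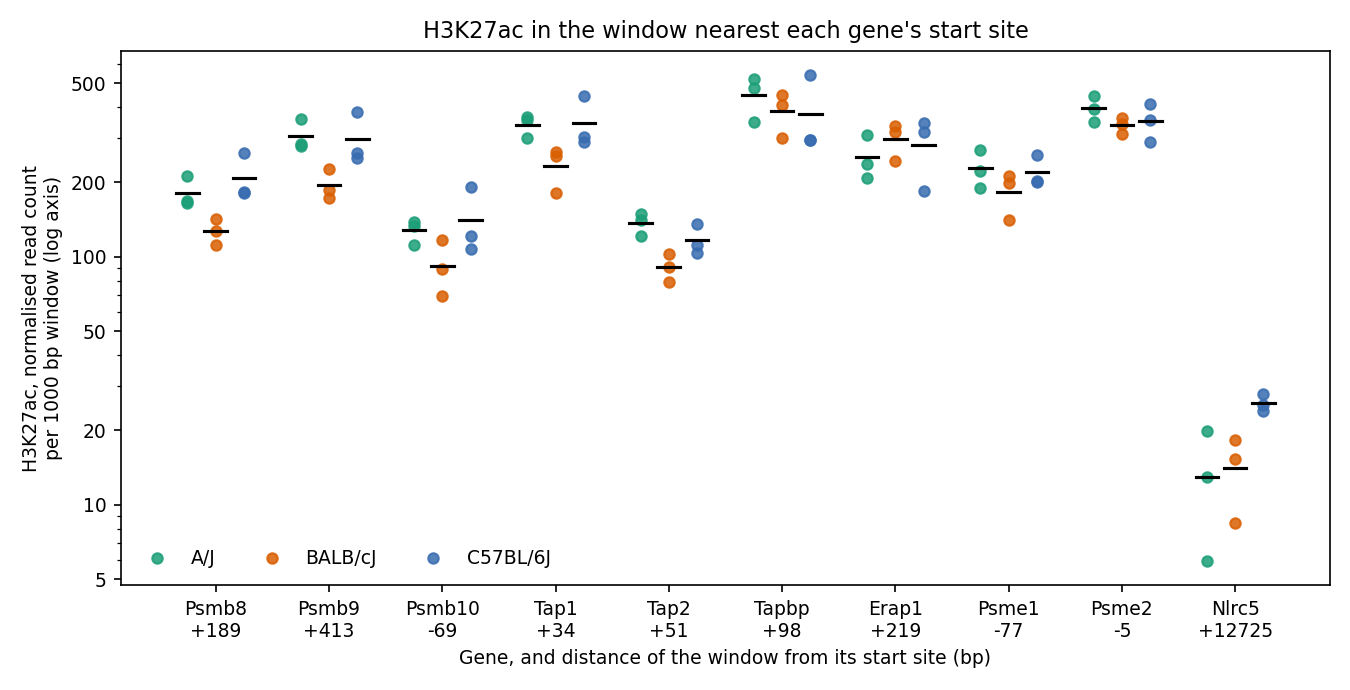
H3K27ac in the window nearest each gene's start site, as normalised read count per window of 1000 bp on a log axis, with 1 point per library (3 per strain) and black bars for strain means. BALB/cJ has the lowest mean in 7 of the 10 windows, and the 9 libraries of *Nlrc5* lie below all others.

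The comparison of BALB/cJ with C57BL/6J asked how far the level of the mark differs between the parents of the hybrid. Fold changes come from 1 edgeR quasi-likelihood fit of the 9 libraries, adjusted p-values are Benjamini-Hochberg values over all 60387 windows tested, and a window was called at an adjusted p under 0.05 with an absolute log2 fold change over 1. By this rule 1 of the 25 member windows was called, lower in BALB/cJ, against 8.56% of all windows (4.46% higher and 4.1% lower in BALB/cJ). The adjusted p alone passed in 2 windows against 10.8%, and an unadjusted p under 0.05 in 12 against 22.3%. All 12 were lower in BALB/cJ, and over all windows this p was reached by 11.7% in that direction and 10.6% in the other. The libraries of the strains did not overlap in 11 windows, or 44% against 24.9% of all. In these 11 every BALB/cJ library lay below every C57BL/6J library, as in 12.9% of all windows, whereas 12% of all had every BALB/cJ library above. The log2 fold change was negative in 23 of the 25, with a median of -0.53 against -0.01 over all windows.

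The called window was the one 6634 bp downstream of the *Psmb9* start (chr17:34180196-34181196, mm10), whose accessible region was printed above. It held 10.1, 13.7 and 10.2 normalised counts in BALB/cJ, 32.0, 44.2 and 56.7 in C57BL/6J and 25.0, 41.5 and 17.5 in A/J. Thus the 3 BALB/cJ libraries lay below all others, and A/J overlapped C57BL/6J. BALB/cJ was 4.11-fold lower than C57BL/6J (log2 fold change -2.04 ± 0.40 (SE), adjusted p = 0.000859). The raw counts behind these values were 6 to 14 in BALB/cJ and 19 to 90 in C57BL/6J, so the low group rests on few reads. Raw input reads here were few, from 4 to 15.5 per library. Scaled to equal library totals, the A/J inputs held 15.4, 7.94 and 18.5. The BALB/cJ inputs held 8.84, 5.48 and 9.42, which overlapped A/J. The single C57BL/6J input, at 7.57, lay within the BALB/cJ range.

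The immunoproteasome subunits *Psmb8*, *Psmb9* and *Psmb10* held 9 tested windows, and all 9 had a negative log2 fold change, from -2.04 to -0.24 with a median of -0.74. At the *Psmb8* start (the window centred 189 bp downstream, chr17:34197884-34198884), BALB/cJ held 127, 142 and 112 normalised counts and C57BL/6J 180, 182 and 262, without overlap. This window was 1.67-fold lower in BALB/cJ (log2 fold change -0.74 ± 0.23 (SE), adjusted p = 0.0345) and passed the adjusted p but not the fold limit. The *Psmb8* window centred 515 bp upstream held 48.1, 84.7 and 59.9 in BALB/cJ and 95.9, 109 and 132 in C57BL/6J, with a log2 fold change of -0.87 (adjusted p = 0.0585). The *Psmb9* start window, centred 413 bp downstream (chr17:34186417-34187417), held 172, 185 and 226 against 251, 261 and 382, again without overlap, with a log2 fold change of -0.62 (adjusted p = 0.0842). At the other end of the *Psmb9* windows, 16362 bp downstream, BALB/cJ held 13.5, 4.58 and 14.6 and C57BL/6J 22.7, 25.6 and 23.3 (log2 fold change -0.96, adjusted p = 0.168). *Psmb10*, on chromosome 8, showed -0.68 at the window 69 bp upstream of its start (chr8:105937961-105938961, adjusted p = 0.104) and -0.72 at 286 bp downstream (adjusted p = 0.0772), and BALB/cJ overlapped C57BL/6J in both.

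The transporter genes and tapasin differed among themselves. The single *Tap1* window, 34 bp downstream of the start and so over the divergent promoter (chr17:34187090-34188090), held 180, 263 and 255 normalised counts in BALB/cJ and 290, 305 and 444 in C57BL/6J. The strains did not overlap, and the log2 fold change was -0.59 ± 0.23 (SE, adjusted p = 0.111). This window shares 328 bases with that of the *Psmb9* start, so their values are not independent. In intron 3 of *Tap2*, the window at 1588 bp held 11.8, 22.9 and 9.49 in BALB/cJ and 29.3, 21.0 and 37.2 in C57BL/6J, with 1 BALB/cJ library above the lowest of C57BL/6J and a log2 fold change of -1.20 ± 0.41 (SE, adjusted p = 0.059). The *Tap2* start window had no overlap between the strains at a log2 fold change of -0.36 (adjusted p = 0.394). *Tapbp* was nearly level: its 3 tested windows lay between -0.16 and 0.02, and at the start BALB/cJ held 407, 300 and 448 and C57BL/6J 296, 296 and 540. *Zbtb22* also reaches into the *Tapbp* start window.

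Of the PA28 genes, *Psme2* had 2 intronic windows with an unadjusted p under 0.05, at 339 bp (log2 fold change -0.49, adjusted p = 0.181) and 821 bp (-0.53, adjusted p = 0.166), whereas its start window gave -0.06 (adjusted p = 0.912). These windows overlap one another. The lowest-p window of *Psme1* gave -0.42 (adjusted p = 0.407), and that of *Erap1*, 730 bp upstream of the start, -0.56 (adjusted p = 0.275). *Erap1* carried 318, 243 and 336 normalised counts at its start window in BALB/cJ and 318, 184 and 346 in C57BL/6J, with full overlap. *Nlrc5* at 12725 bp held 8.44, 18.3 and 15.3 in BALB/cJ and 25.3, 27.9 and 23.9 in C57BL/6J, which did not overlap, with a log2 fold change of -0.92 ± 0.43 (SE, adjusted p = 0.204).

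Libraries with the same replicate number deviated together across strains, and with the replicate number as a block more windows passed. The called windows were then 2 (10.5% of all windows), with the *Tap2* intron window added (log2 fold change -1.25, adjusted p = 0.0118), and 10 passed the adjusted p alone against 21.5% of all windows. These 10 were the start windows of *Psmb8*, *Psmb9*, *Psmb10* and *Tap1*, the other *Psmb8* window, *Psmb10* at 286 bp, *Psmb9* at 6634 bp, *Tap2* at 1588 bp and the 2 intronic windows of *Psme2*, with adjusted p-values from 1.15e-05 to 0.0394. The count also moved with single libraries: it was 3 without BALB/cJ replicate 2 and 2 without C57BL/6J replicate 2. Without replicate 2 of all 3 strains, whose counts come in steps of 0.5, it was 5, and the additions were the *Psmb8* window at -515 bp (log2 fold change -1.10), *Tap2* at 1588 bp (-1.68) and *Psmb10* at -69 and 286 bp (-1.01 and -1.06). The *Psmb9* window at 6634 bp was called in each of these fits. The share of all windows called was not computed with libraries left out, so those counts have no share to be set against.

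A/J was then compared with the same BALB/cJ libraries, so that the values below and above share the BALB/cJ side. By edgeR no member window was called, against 3.63% of all windows (1.4% with A/J on top, 2.23% with BALB/cJ), and 0 passed the adjusted p alone against 4.02%. DESeq2 also called 0. An unadjusted p under 0.05 was reached by 9 windows against 14.1%. All 9 were higher in A/J, a direction taken with this p by 6.07% of all windows, and 8.05% took the other. The libraries did not overlap in 8 windows, 32% against 19.1% of all. In these 8 every A/J library lay above every BALB/cJ library, as in 8.87% of all windows, while 10.2% of all had every A/J library below. The log2 fold change was positive in 22 of 25 with a median of 0.44, against 0.01 over all windows, and the 3 negative ones were 2 of *Erap1* and 1 of *Nlrc5*.

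The lowest p fell on the *Psmb9* window 15989 bp downstream of the start (chr17:34170841-34171841), with 44.2, 20.8 and 32.3 normalised counts in A/J and 9.29, 9.16 and 21.9 in BALB/cJ. One BALB/cJ library lay above the lowest of A/J, and the log2 fold change was 1.25 ± 0.40 (SE, adjusted p = 0.0857). The *Psmb9* window at 6634 bp did not overlap between these strains either, with a log2 fold change of 1.20 ± 0.42 (SE, adjusted p = 0.132). At the *Psmb9* start A/J held 286, 279 and 358 normalised counts, above the 172, 185 and 226 of BALB/cJ, with a log2 fold change of 0.66 (adjusted p = 0.12). For *Tap1* the A/J libraries held 301, 356 and 366, also above BALB/cJ, with 0.56 (adjusted p = 0.243). For *Psmb8* the upstream window held 94.2, 184 and 83.4 in A/J, with replicate 2, the library of least depth, above the others, 1 BALB/cJ library within the range of A/J and a log2 fold change of 0.87 (adjusted p = 0.115). *Tap2* gave 0.59 at its start (adjusted p = 0.199) and 0.86 in intron 3 (adjusted p = 0.345), *Psmb10* gave 0.59 at 286 bp (adjusted p = 0.275), and *Psmb8* 0.50 at its start (adjusted p = 0.303).

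With the replicate block, 2 windows were called against 5.39% of all, *Psmb9* at 15989 bp (log2 fold change 1.25, adjusted p = 0.015) and at 6634 bp (1.18, adjusted p = 0.0356), and 7 passed the adjusted p alone against 10.7%. The further 5 were the start windows of *Psmb9*, *Tap1* and *Tap2*, *Psmb8* at -515 bp and *Psmb10* at 286 bp. Without A/J replicate 2 or without BALB/cJ replicate 3, 1 window was called, *Psmb9* at 15989 bp, with a log2 fold change of 1.40 (adjusted p = 0.0496) or 1.88 (adjusted p = 0.039). For these fits with a library left out, the share over all windows was not computed. *Tapbp*, *Psme1*, *Psme2*, *Erap1* and *Nlrc5* had no window past an unadjusted p of 0.05 in this comparison, and their log2 fold changes ran from -0.25 at *Erap1* to 0.44 at *Tapbp*.

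A/J and C57BL/6J were closer at these genes. By edgeR no member window was called, against 7.09% of all windows (3.16% with A/J on top, 3.93% with C57BL/6J), and 0 passed the adjusted p alone against 8.35%. With the block both counts were 0 as well, against 8.91% and 18% of all windows, and DESeq2 called 0. An unadjusted p under 0.05 was found in 1 window against 19.3% (8.71% with A/J on top, 10.5% with C57BL/6J), again *Psmb9* at 6634 bp (log2 fold change -0.84 ± 0.36 (SE), adjusted p = 0.193), where A/J stood between the other strains. Signs were mixed, with 10 positive and 15 negative, a median of -0.09, and libraries without overlap in 3 windows, 12% against 22%. These 3 were *Tapbp* at 1428 bp, higher in A/J, and *Psmb9* at 16362 bp and *Nlrc5* at 12725 bp, higher in C57BL/6J, against 10.4% and 11.6% of all windows in these directions. At the *Psmb9* start the log2 fold change was 0.04 ± 0.22 (SE), at *Tap1* -0.04 ± 0.23 (SE), at the upstream *Psmb8* window 0.01 ± 0.29 (SE) and at the start of *Psme1* 0.02 ± 0.22 (SE).

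**Figure D2:**
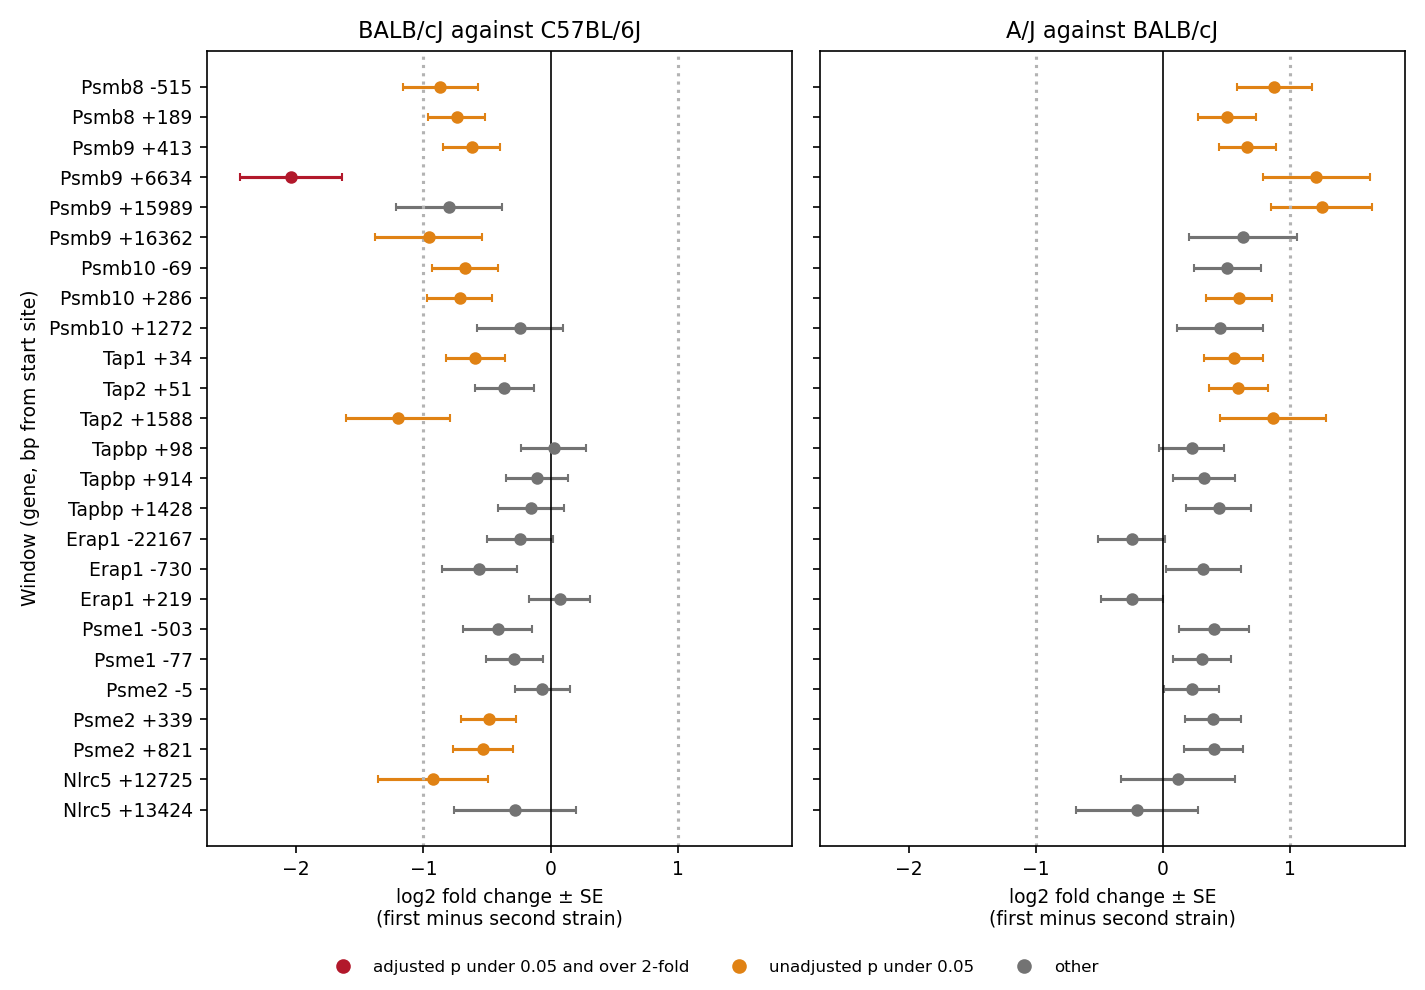
Log2 fold change with its SE of the 25 tested windows in BALB/cJ against C57BL/6J and in A/J against BALB/cJ, with dotted lines at -1 and 1. The points of the first comparison are negative in 23 of 25 windows and those of the second positive in 22 of 25; both contain the same 3 BALB/cJ libraries, and the red point is *Psmb9* at 6634 bp.

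The windows of each gene were then summed, and 14057 genes were tested in the same way. Of windows that overlap, the one of lower coordinate entered the sum, so those of *Psmb8*, *Psme1*, *Psme2* and *Erap1* do not hold the start window. In BALB/cJ against C57BL/6J all 10 sums had a negative log2 fold change, with a median of -0.53, and in A/J against BALB/cJ all 10 had a positive one, with a median of 0.44, against 0.01 and -0.00 over all genes. No sum was called by fold and adjusted p in any comparison. Over all genes the shares called were 5.3% for BALB/cJ and C57BL/6J, 2.5% for A/J and BALB/cJ, and 4.59% for A/J and C57BL/6J. The *Psmb9* sum was 203, 213 and 251 normalised counts in BALB/cJ, 319, 355 and 467 in C57BL/6J and 345, 337 and 404 in A/J, so that BALB/cJ stood apart from both. Its log2 fold change was -0.78 ± 0.18 (SE, adjusted p = 0.00589) against C57BL/6J and 0.70 ± 0.18 (SE, adjusted p = 0.0245) for A/J against BALB/cJ. The *Tap1* sum, which is its single window, passed the adjusted p against C57BL/6J (-0.61 ± 0.19 (SE), adjusted p = 0.0463) and not for A/J (0.56, adjusted p = 0.134). By the adjusted p alone, 2 of 10 sums thus passed in the first comparison against 10.5% of all genes, and 1 of 10 in the second against 4.2%. The *Psmb9* start window, which is part of its sum, shares 328 bases with the *Tap1* window, so the 2 sums are not independent. The sum of *Tapbp* was the nearest to 0 in the first (-0.00 ± 0.19 (SE)) and that of *Erap1* in the second (0.01 ± 0.22 (SE)). Without BALB/cJ replicate 2, 1 sum was called in each of these 2 comparisons, and the share over all genes was not computed for that fit.

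With the replicate block, 6 sums passed the adjusted p in BALB/cJ against C57BL/6J (*Psmb9*, *Tap1*, *Psmb8*, *Psmb10*, *Psme2* and *Tap2*, adjusted p from 7.49e-06 to 0.0221) against 23.7% of all genes. In A/J against BALB/cJ 5 passed, the same genes without *Psme2*, against 12.8%. In A/J against C57BL/6J 0 of 10 passed with the block against 19.8%, and 0 without it against 8.27%.

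By position, the 4 genes that lie together in the MHC held 9 tested windows, with centres from -16.6 to 18.5 kb of the *Tap1* start. All 9 were lower in BALB/cJ than in C57BL/6J, with a median log2 fold change of -0.80 and values from -2.04 to -0.36, and all 9 were lower in BALB/cJ than in A/J, where the median was 0.66. Both counts rest on the same BALB/cJ libraries. The 9 are not independent either: *Psmb9* at 16362 and 15989 bp share 628 bases, the *Psmb9* start and *Tap1* 328 and the *Psmb8* windows 297. The 16 windows of the other 6 genes had medians of -0.28 and 0.32, with 14 and 13 lower in BALB/cJ. Among them, *Psmb10* on chromosome 8 gave -0.72, -0.68 and -0.24 against C57BL/6J, beside -0.62 at the *Psmb9* start and -0.59 at *Tap1*. The largest values in the cluster, -2.04 at *Psmb9* 6634 bp and -1.20 at *Tap2* 1588 bp, fell on windows with strain means from only 11.4 to 44.3. *Tapbp* is in the same complex at a distance and belongs to the 16, with values from -0.16 to 0.02 against C57BL/6J. The difference between the 2 groups of windows was not tested. The windows between *Psmb9* and *H2-DMb1*, the next protein-coding gene to the left, held few reads: the one at 13079 bp had 3 to 7 raw counts in BALB/cJ, 1 to 19 in A/J and 4 to 15 in C57BL/6J and was not tested.

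**Figure D3:**
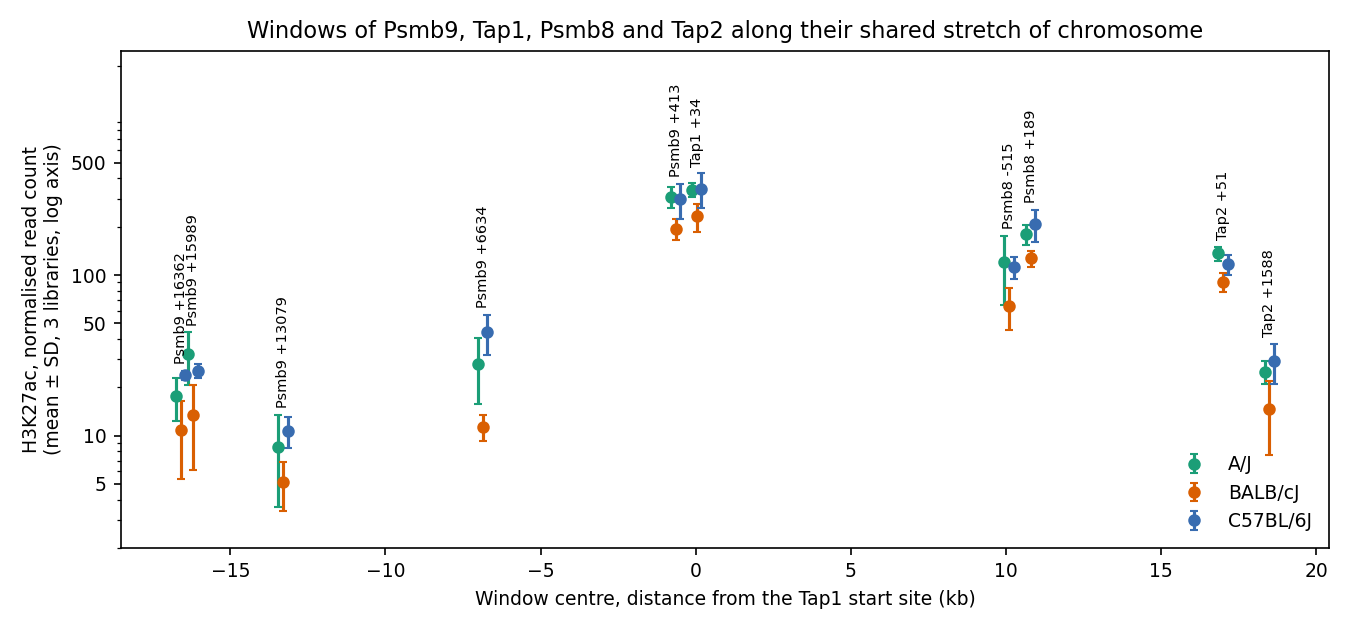
Mean normalised read count with SD of 3 libraries per strain (log axis) in the windows of *Psmb9*, *Tap1*, *Psmb8* and *Tap2*, by distance of the window centre from the *Tap1* start in kb. The BALB/cJ mean is the lowest of the 3 strains in all 10 windows, and the levels fall from over 190 at the divergent promoter to under 35 in the windows left of -5 kb, apart from the 44.3 of C57BL/6J at the *Psmb9* window 6634 bp downstream.

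In CB6F1/J both alleles sit in the same cells, and each allele was counted from perfectly mapped reads that span a variant between BALB/cJ and C57BL/6J. Such reads numbered 1061.5 over the 58 member regions, and 19 regions held any. The other 39 held none, although 38 of them had perfectly mapped reads. No region of *Psmb10*, *Erap1*, *Psme1* or *Psme2* held an allelic read, with 982, 1094.5, 582.5 and 625 perfectly mapped reads on the C57BL/6J genome over the 3 libraries, so these genes could not be compared by allele. All 19 informative regions belonged to the 5 genes of the MHC and to *Nlrc5*. A mean normalised count over 16 was reached by 3, which were tested with edgeR. None was called, against 6.54% of 4467 regions, or passed the adjusted p alone, against 6.63%, and unadjusted p-values were 0.152 or higher. DESeq2 also called 0.

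The region over the divergent *Tap1* and *Psmb9* promoter, centred 33 bp from the *Tap1* start, held the most. Its BALB/cJ allele had 31, 97 and 62.5 reads in the 3 libraries and its C57BL/6J allele 45, 147 and 76, so that the BALB/cJ allele was the lower one in 3 of 3 libraries and had 41.5% of 458.5 reads. The log2 fold change between alleles was -0.46 ± 0.31 (SE, adjusted p = 0.587), and -0.45 (adjusted p = 0.23) with the library as a block. At *Tap2*, 323 bp from the start, the alleles had 20.5, 26 and 45.5 reads on the BALB/cJ side against 18, 26 and 44, with a log2 fold change of 0.10 ± 0.45 (SE, adjusted p = 0.999). At *Tapbp*, 906 bp from the start, they had 15.5, 29 and 24 against 19.5, 27.5 and 19.5 (0.02 ± 0.44 (SE), adjusted p = 0.999). The median count of a tested region over all 6 allele columns was 181. Over all autosomal regions the BALB/cJ allele also had fewer reads, 181017, 378311 and 282044 against 189349, 400060 and 300405 in the 3 libraries. An even split is thus not the baseline of raw read shares, whereas the fold changes are scaled for these totals. How many regions have the same allele lower in 3 of 3 libraries was not counted. The SEs of 0.31 to 0.45 come from the fit that does not pair the alleles of a library. In that fit an allele difference of the size measured between the strains at these genes was not detectable. With the library as a block, the edgeR adjusted p was 0.918 at *Tap2* and 0.993 at *Tapbp*.

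Below the limit for testing, the regions held few reads and the libraries went apart. The window called between the parents, *Psmb9* at 6634 bp, had 12 allelic reads in its region, 5.5 of BALB/cJ and 6.5 of C57BL/6J. The *Psmb9* region at 4238 bp had 3.5 of BALB/cJ and 21.5 of C57BL/6J, but 19 of the latter came from library 2. Upstream of *Psmb8*, at -509 bp, the BALB/cJ allele had 16.5, 13.5 and 1 reads and the C57BL/6J allele 0, 22.5 and 4.5, in opposite directions. *Tap2* at -405 bp leaned to BALB/cJ with 16 reads against 2.5, and in exon 2, at 1206 bp, to C57BL/6J with 28 against 18. *Nlrc5* at 4434 bp had 3.5, 9.5 and 1 reads of C57BL/6J and 0 of BALB/cJ in all 3 libraries, so that all 14 reads came from 1 allele, a count that allows a BALB/cJ share of up to 21.4% by counting error alone. Summed over all its regions, a choice made after seeing the data, *Tap1* had a BALB/cJ share of 42.0% of 466.5 reads (adjusted p = 0.508), *Tap2* 49.8% of 259 (adjusted p = 0.996) and *Tapbp* 54.4% of 188.5 (adjusted p = 0.919), with 0 called against 6.49% of 3068 genes. These are shares of raw reads, which over all autosomal regions were fewer for the BALB/cJ allele in each library.

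**Figure D4:**
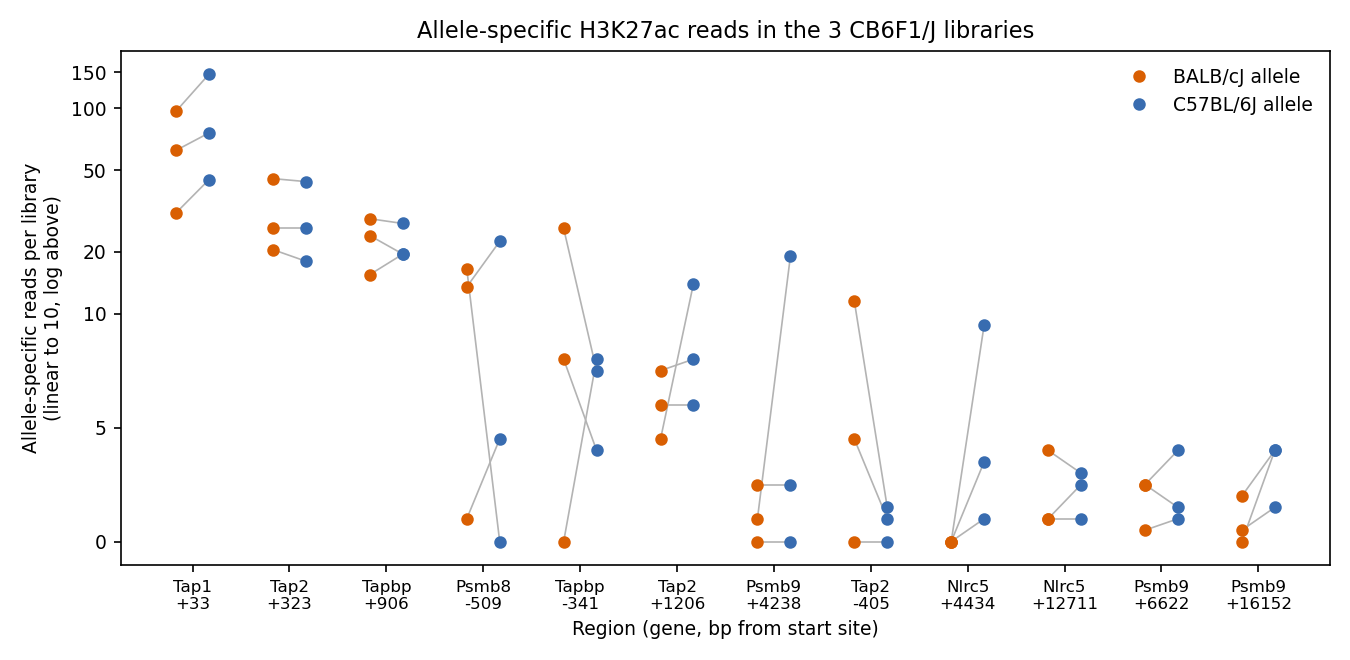
Allele-specific reads in the 12 regions with at least 12 such reads, 1 pair of joined points per CB6F1/J library, on an axis that is linear to 10 and logarithmic above. At *Tap1* all 3 pairs slope up to C57BL/6J, at *Tap2* (323 bp) and *Tapbp* (906 bp) the pairs are close to level, and in the other 9 regions most counts are under 20. The reads are raw and not scaled for the total of each allele.

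The strain difference was set against the allele difference by an interaction term, in windows with enough counts of both kinds. This held for 3 member windows, and edgeR called 0, against 2.02% of 3868 windows. With all regions of a window summed it also called 0, against 1.54% of 4080. At *Tap1* the strain log2 fold change was -0.59 and the difference between it and the allele contrast -0.20 ± 0.41 (SE, adjusted p = 0.938). At *Tap2* the strain value was -0.36 and the difference -0.52 ± 0.51 (SE, adjusted p = 0.804), and at *Tapbp* -0.11 and -0.20 ± 0.45 (SE, adjusted p = 0.948). The intervals are wide enough to hold both no difference and a difference as large as the strain contrast itself, and the unadjusted p-values were 0.312 to 0.662. A call also needed an absolute difference over 1, more than any of these 3 strain values. With strain values of this size, an allele contrast of 0 could not be called by this rule.

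Input chromatin of A/J and BALB/cJ showed how far the reads themselves, without the antibody, differ at these windows. In edgeR's test of the 3 inputs of each strain, 0 of the 28 member windows were called, against 0.0493% of 95243 windows. An unadjusted p under 0.05 was found in 1, *Psmb10* at 286 bp (log2 fold change -0.98), where the input was higher in BALB/cJ and H3K27ac lower. C57BL/6J had 1 input library, so its input was not tested.

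Genes that act with these 10 gave counts of their own, for lists written with earlier results of these data known. Beside these counts and those of the markers below stand the shares called over all windows. They were 8.56% in BALB/cJ against C57BL/6J (4.46% higher and 4.1% lower in BALB/cJ). In A/J against BALB/cJ they were 3.63%, and in A/J against C57BL/6J 7.09%. Of the class I heavy chains and *B2m*, the light chain, 42 windows of 10 genes were tested, and in BALB/cJ against C57BL/6J 0 were called higher and 3 lower in BALB/cJ, in *H2-K1* (lowest p 966 bp upstream, log2 fold change -1.93, adjusted p = 0.0011) and *B2m* (4603 bp downstream, -1.37, adjusted p = 0.00344). In A/J against BALB/cJ 1 was called, *H2-T24*, lower in A/J (-2.04, adjusted p = 0.031), and *B2m* gave 0.93 (adjusted p = 0.0464), and in A/J against C57BL/6J 1 was called higher, also of *H2-T24* (1.41, adjusted p = 0.0115), and 1 lower. The heavy chain genes have near-identical copies, so reads can be misplaced among them. Of 19 regulators of class I genes (interferon, NF-κB and promoter factors), 206 windows were tested. In BALB/cJ against C57BL/6J, 3 were called higher and 11 lower in BALB/cJ, against 4.46% and 4.1% of all windows. Among the lower ones was *Ifngr2* 8875 bp upstream of its start (-1.42 ± 0.23 (SE), adjusted p = 0.000101). *Ifngr2* encodes a chain of the interferon-γ receptor. For A/J against BALB/cJ 3 were called, all higher in A/J, with *Nfkb1* at 1.18 (adjusted p = 0.0128). In A/J against C57BL/6J this list had 1 called higher in A/J and 6 lower, led by *Ifngr2* (-1.81, adjusted p = 2.52e-05) and *Nfyc* (-1.04, adjusted p = 0.0213).

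Loading partners and other peptidases had 54 tested windows. Of these, 1 was called higher and 3 lower in BALB/cJ than in C57BL/6J, against 4.46% and 4.1% of all windows. The higher one was of *Npepps*, a cytosolic aminopeptidase, 8333 bp upstream (5.70 ± 0.58 (SE), adjusted p = 2.26e-07), and it was also higher in BALB/cJ than in A/J (-5.44, adjusted p = 4.61e-07), while *Lnpep*, which trims peptides in endosomes, led the lower ones (-1.29, adjusted p = 0.00195). *Lnpep* was also lower in A/J than in C57BL/6J (-1.16, adjusted p = 0.0116), 1 of 2 windows called there. Of 6 proteasome subunits, chaperones and activators outside the 10 genes, 16 windows were tested, and 1 was called in any comparison, *Psme4*, higher in BALB/cJ than in C57BL/6J (1.02, adjusted p = 0.00323). *Psmb5*, the constitutive subunit that *Psmb8* replaces, gave -0.24 there (adjusted p = 0.61).

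Markers of other cells were read as the mean normalised count per window in each library. The 28 member windows averaged 105 to 118 in BALB/cJ, 139.8 to 148 in A/J and 123 to 176 in C57BL/6J. Of 4 dendritic cell genes, all with windows, *Clec9a* and *Xcr1* averaged 168 and 123 at their nearest windows. *Zbtb46* and *Flt3* were low there, at 20.8 and 5.9, so the list did not go 1 way. Its 19 windows ran from 53.1 to 59.3 in BALB/cJ, 47.5 to 65.4 in A/J and 61.2 to 72.8 in C57BL/6J. The list mean was thus also lower in BALB/cJ than in C57BL/6J, with 0 of 13 tested windows called in that comparison. Against either other strain, 2 of the 13 were called lower in A/J, of *Zbtb46*. The lowest p fell 14569 bp downstream of its start (-2.00 against BALB/cJ, adjusted p = 0.00148). Endothelial windows averaged 14.2 to 19.6 in A/J, 19.9 to 25.6 in BALB/cJ and 16.3 to 22.5 in C57BL/6J, so that A/J lay below BALB/cJ without overlap. Of 11 tested, 3 were called lower in A/J than in BALB/cJ and 2 lower than in C57BL/6J. All carried the name of *Cdh5* as the nearest gene. Those of lowest p lay 160915 bp (-1.24, adjusted p = 0.0156) and 131425 bp (-2.05, adjusted p = 0.0034) upstream of its start. The window nearest that start averaged 18.7. Hepatocyte windows averaged 18.5 to 27.5 in A/J, 25.8 to 29.1 in BALB/cJ and 29.2 to 33.0 in C57BL/6J, with 0 of 8 called in any comparison. The 11 windows of *Ms4a1* averaged 20.6 to 29.1 in A/J, 22.1 to 30.0 in BALB/cJ and 26.0 to 32.4 in C57BL/6J. Of 7 tested, 2 were called lower in A/J than in BALB/cJ and 1 lower than in C57BL/6J. The lowest p fell 34660 bp downstream of its start (-1.71 against BALB/cJ, adjusted p = 0.0242). The 218 windows of 11 Kupffer cell genes averaged 93.8 to 96.3 in BALB/cJ, 83.1 to 99.9 in A/J and 94.1 to 128 in C57BL/6J. Of 180 tested, 5 were called higher and 21 lower in BALB/cJ than in C57BL/6J, against 4.46% and 4.1% of all windows. The 2 genes of lowest adjusted p went opposite ways. *Cd5l* gave -3.39 at 28446 bp upstream (adjusted p = 3.51e-08) and *Clec4f* 4.00 at 4448 bp upstream (adjusted p = 1.14e-05). Monocyte and neutrophil windows overlapped, with 94.3 to 176 in A/J, 116 to 186 in BALB/cJ and 101 to 172 in C57BL/6J. Windows 25062 and 25598 bp downstream of the *Ly6c2* start, with strain means from 417 to 773, raised these averages. At the windows nearest their starts, *Ccr2* averaged 31.1, *S100a8* 24.8, *Ly6c2* 3.7 and *S100a9* 2.7. Of 10 tested, 1 was called, *S100a8*, higher in BALB/cJ than in C57BL/6J (1.51, adjusted p = 0.0271). In bulk libraries, fewer cells of a type and less of the mark per cell cannot be told apart, and the part of other cells in the member values was not tested.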

How the data were processed

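Per the labels and the study's methods, the authors mapped H3K27ac ChIP and input libraries of sorted Kupffer cells with Bowtie2 to each strain's own genome (mm10 with its variants), shifted them to mm10 with MMARGE and counted them with HOMER over merged ATAC-seq peaks. Tool versions are not given in the sources used here. The deposited values are raw read counts for replicates 1 and 3 and, for replicate 2, the inputs and the F1 alleles, values in steps of 0.5. How the fractions arose is not given in the sources used here. These deposited values were handled like estimated counts and rounded to whole numbers.

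Windows with a mean normalised count over 16 (inputs, over 4) were fitted with edgeR 4.0.16 (TMM, robust quasi-likelihood, R 4.3.3), the 9 parental libraries together, with DESeq2 1.42.0 as an alternative. A call needed an adjusted p under 0.05 and a log2 fold change beyond 1 in either direction. SE is the absolute log2 fold change over the square root of F. Biological variation (BCV) came to 0.214 in the windows and 0.314 in the F1 regions, which were fitted on autosomes. Deviations from strain means correlated at 0.241 to 0.428 in the 9 pairs of libraries with the same replicate number and at -0.326 to 0.0647 in other pairs, so the numbers were taken as pairs, from the data alone, and the blocked fit is given where it changed a call or count. Windows named were the one nearest each start, those of lowest p and those with an unadjusted p under 0.05, and for other lists the 2 genes of lowest adjusted p, of which 1 is not reported here. Members, lists and roles were chosen with earlier results of these data known. The fits were tested on simulated counts.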

Additional observations from a re-analysis of the deposited data

How the results depend on the processing

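For windows the alternatives were RLE size factors, library totals, DESeq2, no count filter, rounding down, the replicate block, no minimum fold and each library left out. In A/J against BALB/cJ, 0 member windows were called except 2 with the replicate block and 0 to 1 with 1 library left out. In BALB/cJ against C57BL/6J, 1 was called except 2 without a minimum fold, 2 with counts in steps of 0.5 rounded down, 2 with the replicate block, 5 without replicate 2 of every strain, and 1 to 3 with 1 library left out. Gene sums called were 0 except 1 and 2 without a minimum fold in these 2 comparisons and 0 to 1 with 1 library left out. In A/J against C57BL/6J, in the F1 regions, in the interaction and in the inputs 0 were called in every alternative run. The block changed no other call. The cause of these moves was not tested. Where libraries were left out, no share over all windows or genes was computed beside these counts. With 1 F1 library left out, the *Tapbp* region at 906 bp, at 0.02, ran from -0.080 (without CB6F1/J replicate 3) over -0.0022 (without replicate 2) to 0.21.

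The 3 libraries per group, shallow replicate 2 libraries and a median of 181 allelic reads limit the precision. Small differences cannot be seen at the distal windows of *Psmb9*, *Tap2* and *Nlrc5* or between alleles. Structural variants of the strains are not in the genomes used for mapping.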
